A study of Mus musculus with 6 samples.

Results

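Transcripts of 10 genes of the BCL2 family, which control apoptosis at the outer membrane of mitochondria, were measured in mouse liver after an overdose of acetaminophen. The genes are Mcl1, Bcl2l1, Bcl2l11, Bax, Bak1, Bid, Bik, Bmf, Bbc3 and Pmaip1. They were chosen by name for their role, but with earlier results of these data known. Each symbol matched 1 entry among the 55385 genes of the deposited table. Of the 10, 9 had a mean FPKM (fragments per kilobase of transcript and 1e6 counted fragments) of at least 0.5 and were tested together with all other genes above that level, 11677 in all. Pmaip1 was below it and is given by its values.

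The livers came from 6 mice of strain C57BL/6, aged 6 weeks, in 3 groups of 2. Acetaminophen at 500 mg per kg was given to Optn-/- mice (replicates 4 and 5) and to wild-type mice (replicates 1 and 4). Control mice, wild type as well (replicates 3 and 6), were injected intraperitoneally with phosphate-buffered saline (200 µL). All livers were taken 6 h later. Optineurin, the product of Optn, is a receptor for selective autophagy and helps cells to clear damaged mitochondria. How the Optn allele was made, and whether the knockout mice were littermates of the wild-type mice, is not given in the labels. No knockout livers without acetaminophen were analysed here, so an effect of the genotype alone cannot be told apart from an effect of the genotype on the response to the drug. The labelled tissue was liver, although the protocol text speaks of adipose RNA. Summed hepatocyte markers (8 genes, among them Alb and Apoa1) took 108714 to 149625 counts per 1e6 counts (CPM) in every library.

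The family acts in 3 tiers. Pro-survival proteins such as MCL1 and BCL-XL hold the effectors BAX and BAK in check. BH3-only proteins (BIM, BID, BIK, BMF, PUMA and NOXA) sense damage and either neutralize the pro-survival proteins or activate the effectors, which then permeabilize the outer mitochondrial membrane and release cytochrome c. In hepatocytes MCL1 and BCL-XL are both needed for survival, and BID links death receptors to the mitochondrial step. Acetaminophen overdose kills hepatocytes through mitochondrial damage and mainly by necrosis, with JNK signalling and BAX among the known participants. Much of the control of this family lies in protein cleavage, phosphorylation and turnover, which transcript levels do not measure.

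Optn itself had 0.32 and 0.46 FPKM in knockout acetaminophen livers, 9.17 and 9.19 in wild-type acetaminophen livers and 20.9 and 18.7 in wild-type saline livers, so no library went against its genotype label. Total counts per library ran from 59.1 to 77.3 M (1e6 counts). Traces of other tissues divided the libraries across the groups. Skeletal muscle markers (12 genes) summed to 65.9 and 77.9 CPM in wild-type acetaminophen replicates 1 and 4 and 100.6 in saline replicate 3, and to at most 0.976 in the others. Intestinal markers (12 genes, among them Fabp2, which liver also expresses) summed to 75.6 and 83.5 CPM in knockout livers, 41 and 38.1 in wild-type acetaminophen livers and 61 and 78.6 in saline livers. The goblet cell gene Muc2 had 3.47 and 6.83 CPM in knockout replicates 4 and 5 and 4.13 in saline replicate 6, and at most 0.0676 elsewhere. Each acetaminophen group therefore lies wholly in 1 of these library sets, and only the saline livers are divided between them. Wild-type acetaminophen replicate 4 also held 136.4 CPM of neuron markers (10 genes), against 6.44 to 14.6 in the other libraries. The results without each library, and in the model with a library set term, are given where they change a call of a member. For the lists they are given mainly as counts. The set term rests only on the difference between the saline livers, because only they are divided.

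**Figure D1:**
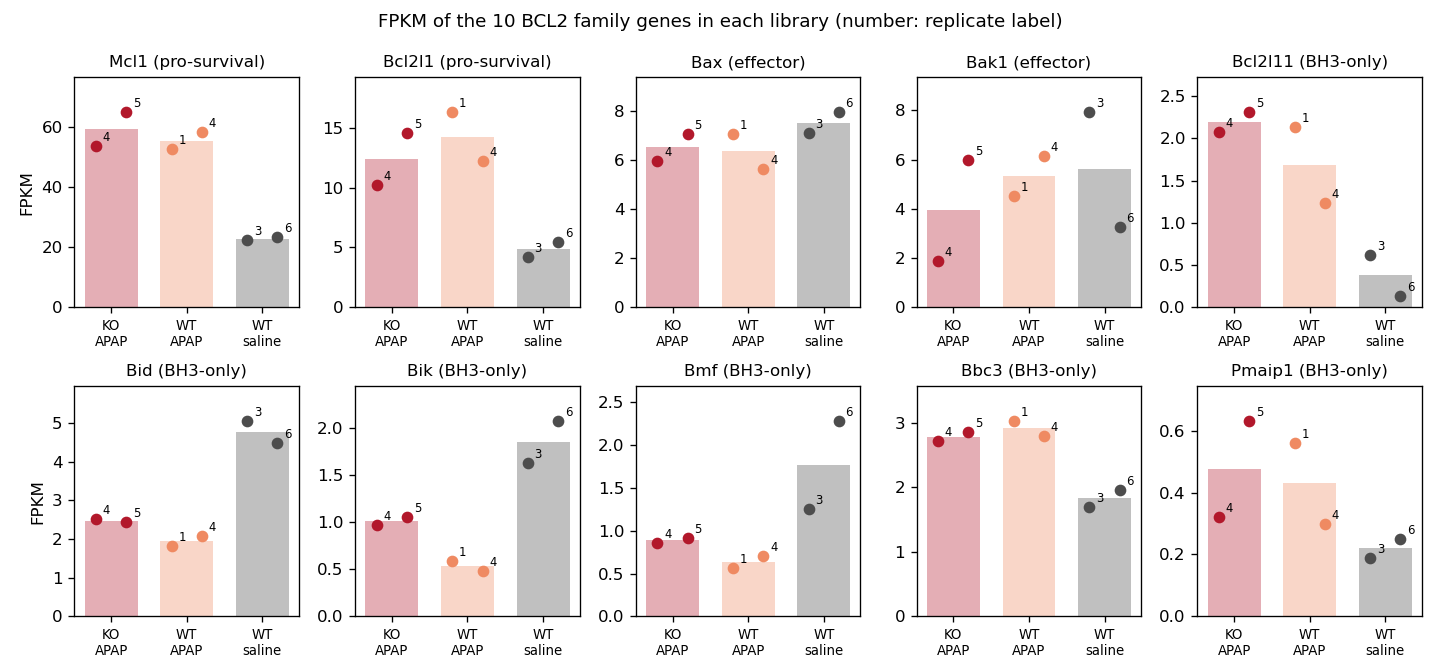
FPKM (y axis, a scale of its own in each panel) of the 10 genes by group; points are single livers with their replicate labels, and bars are means of 2 (KO, Optn-/-; WT, wild type; APAP, acetaminophen). Mcl1, Bcl2l1, Bcl2l11, Bbc3 and Pmaip1 are higher in all 4 acetaminophen livers than in both saline livers. Bax (by a small margin), Bid, Bik and Bmf are lower, and Bak1 overlaps. The share of all genes that separate in this way was not counted, which also holds for later statements that groups did not overlap. In wild-type acetaminophen livers against saline, 7 of 9 members tested had an unadjusted edgeR p under 0.05. So had 3767 of all 11677 genes.

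The first comparison asks how wild-type livers given acetaminophen differ from wild-type livers given saline. The pro-survival genes Mcl1 and Bcl2l1 rose, and so did the BH3-only gene Bbc3. The BH3-only genes Bid and Bik fell. No call was made for either effector. Of 9 members tested, 3 rose and 2 fell (edgeR's quasi-likelihood test, adjusted p under 0.05 over all genes), where 8.36% of all 11677 genes rose and 5.92% fell. The median log2 fold change was 0.13 over the members and 0.03 over all genes tested. With total counts in place of trimmed-mean scaling the median of all genes was -0.19, and rises made up 32.6% of all calls in place of 58.5%, while 2 members rose and 3 fell. Without wild-type acetaminophen replicate 1 no member fell, and without any other single library 1 fell. In whole liver, fewer cells of a type and less RNA per cell cannot be told apart.

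The same genes were then set against saline in knockout livers. Here Mcl1, Bcl2l1, Bbc3 and the BH3-only gene Bcl2l11 rose, and Bid fell. That is 4 rises and 1 fall among the 9 members, where 12.2% of all genes rose and 8.05% fell. Without knockout replicate 5 the count of rises was 1, without saline replicate 6 it was 3, and without any other single library it was 2. No member fell when a knockout or a saline liver was left out. With total counts the median of all genes was again -0.19, and rises made up 39.1% of all calls in place of 60.3%. This comparison uses the same saline livers as the first and differs from its control group in genotype as well as in treatment.

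**Figure D2:**
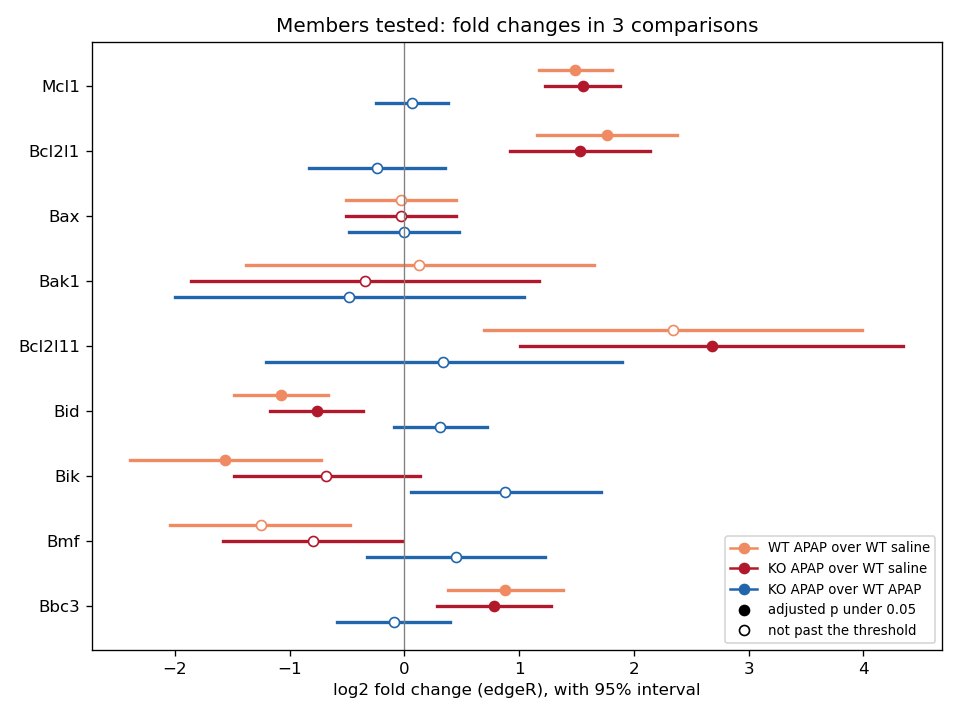
Log2 fold changes from edgeR (x axis) of the 9 tested members in 3 comparisons, with 95% intervals; filled points had an adjusted p under 0.05. Mcl1 and Bcl2l1 lie well above 0 in both comparisons with saline, Bid lies below it, and every filled point belongs to a comparison with saline.

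Mcl1 encodes a short-lived pro-survival protein that binds BAK and several BH3-only proteins. It was the most abundant member in every library. Its FPKM was 53.8 and 65.0 in knockout acetaminophen livers, 52.8 and 58.4 in wild-type acetaminophen livers and 22.4 and 23.3 in wild-type saline livers. All 4 acetaminophen livers lay above both saline livers, and the acetaminophen groups overlapped. The mean was 59.4 ± 7.89 FPKM in knockout acetaminophen livers, 55.6 ± 3.98 in wild-type acetaminophen livers and 22.9 ± 0.65 in saline livers (SD, n = 2 each). Against saline the log2 fold change was 1.49 ± 0.13 in wild-type acetaminophen livers (SE, edgeR adjusted p = 0.00347) and 1.56 ± 0.13 in knockout acetaminophen livers (edgeR adjusted p = 0.00224), or 2.81-fold in wild type. Both calls held in each of 15 alternatives. Within the library set with muscle traces, wild-type acetaminophen livers had 2.48 times the FPKM of saline replicate 3. Within the other set, knockout livers had 2.55 times the FPKM of saline replicate 6.

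Mcl1 (ENSMUSG00000038612) lies on chromosome 3, 95658788 to 95663176, plus strand, GRCm38. Its promoter is shown because the gene had the smallest adjusted p of the members in both comparisons with saline. The 250 bases before the RefSeq start (RefSeq, GRCm38.p6, chr3:95658471-95658720, plus strand) hold no annotated exon and are printed in lower case because they hold no match to the FOXO motif marked in the sequences of Bcl2l11 and Bbc3 further on.
Mcl1 promoter: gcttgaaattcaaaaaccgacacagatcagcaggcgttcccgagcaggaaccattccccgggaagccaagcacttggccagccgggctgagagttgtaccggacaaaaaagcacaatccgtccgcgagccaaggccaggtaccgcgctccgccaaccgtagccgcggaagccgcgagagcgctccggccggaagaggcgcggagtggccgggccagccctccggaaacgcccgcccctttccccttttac
The window is 64.4% G and C, where the median of all 32851 promoter windows is 52.4%. It holds 1 GC box (GGGCGG or its reverse complement), a motif found in 32.74% of all windows.

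Bcl2l1 encodes BCL-XL, the pro-survival protein of the outer mitochondrial membrane, and also the short pro-apoptotic splice form BCL-XS. A gene-level count does not separate the forms. The gene lies on chromosome 2, 152780668 to 152831728, minus strand (ENSMUSG00000007659, GRCm38). Its FPKM was 10.2 and 14.5 in knockout acetaminophen livers, 16.3 and 12.2 in wild-type acetaminophen livers and 4.23 and 5.45 in wild-type saline livers. The acetaminophen groups overlapped each other and neither overlapped saline. Against saline the log2 fold change was 1.77 ± 0.25 in wild-type acetaminophen livers (SE, edgeR adjusted p = 0.0111), or 3.42-fold, and 1.53 ± 0.25 in knockout acetaminophen livers (adjusted p = 0.0118). Without saline replicate 3 the edgeR adjusted p was 0.0654 in wild type and 0.0677 in knockout. The knockout call was also lost without knockout replicate 5 (edgeR adjusted p = 0.0652) and in the model with a library set term (0.0662).

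The effectors gave no call. BAX is cytosolic in healthy cells and moves to mitochondria on activation, while BAK resides in the outer membrane. Bax (chromosome 7, 45461697 to 45466898, minus strand, ENSMUSG00000003873) had 5.98 and 7.06 FPKM in knockout acetaminophen livers, 7.05 and 5.66 in wild-type acetaminophen livers and 7.12 and 7.95 in wild-type saline livers. Both saline livers had a higher FPKM than the other 4, by a margin smaller than the spread within groups. With trimmed-mean scaling the log2 fold change against saline was -0.03 ± 0.19 in wild-type acetaminophen livers (95% interval -0.51 to 0.45, edgeR adjusted p = 0.933). It was -0.03 in knockout acetaminophen livers (adjusted p = 0.932), and the sign changed with the setting in both comparisons. The interval for wild type leaves room for a modest change in either direction.

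Bak1 (chromosome 17, 27019810 to 27029009, minus strand, ENSMUSG00000057789) varied widely between livers of 1 group. It had 1.88 and 6.00 FPKM in knockout acetaminophen livers, 4.53 and 6.16 in wild-type acetaminophen livers and 7.92 and 3.28 in wild-type saline livers. The higher liver exceeded the lower by 3.19 times among knockouts and by 2.42 times among saline controls, and all 3 groups overlapped. Against saline the log2 fold change was 0.13 ± 0.62 in wild-type acetaminophen livers (95% interval -1.38 to 1.65, edgeR adjusted p = 0.907) and -0.34 ± 0.62 in knockout acetaminophen livers (adjusted p = 0.726), with signs that changed with the setting. The gene lies within both annotated entries named Ggnbp1 on the opposite strand and shares 177 and 437 exon bases with them. Those entries had 0.243 to 1.67 FPKM. Whether counting used strand is not given in the sources used here, and the part of this overlap in the spread of Bak1 was not tested.

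Among the BH3-only genes, Bcl2l11 had the largest fold changes. It encodes BIM, which binds all pro-survival members and can activate BAX and BAK directly. Its FPKM was 2.08 and 2.31 in knockout acetaminophen livers, 2.14 and 1.24 in wild-type acetaminophen livers and 0.62 and 0.14 in wild-type saline livers. Every acetaminophen liver lay above both saline livers, but the saline livers differed from each other by 4.33 times, on counts of 326 and 99. Against saline the log2 fold change was 2.68 ± 0.68 in knockout acetaminophen livers (SE, edgeR adjusted p = 0.0422) and 2.34 ± 0.67 in wild-type acetaminophen livers, which did not pass the test (adjusted p = 0.0718). Over the alternatives these values ran from 1.67 to 4.08 in knockout and from 1.33 to 3.74 in wild type. The knockout call was lost without knockout replicate 4 (edgeR adjusted p = 0.118), knockout replicate 5 (0.149), wild-type acetaminophen replicate 1 (0.0564) or wild-type acetaminophen replicate 4 (0.0535). Without saline replicate 3 wild type passed the test (edgeR adjusted p = 0.0268).

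Bbc3 encodes PUMA, a BH3-only protein known as a p53 target that is also induced without p53. Its FPKM was 2.71 and 2.85 in knockout acetaminophen livers, 3.02 and 2.80 in wild-type acetaminophen livers and 1.70 and 1.96 in wild-type saline livers. The livers of each group lay close together, and neither acetaminophen group overlapped saline. The log2 fold change against saline was 0.88 ± 0.20 in wild-type acetaminophen livers (SE, edgeR adjusted p = 0.0415) and 0.78 ± 0.20 in knockout acetaminophen livers (adjusted p = 0.0455). Both calls were lost whichever of the 6 libraries was left out, with edgeR adjusted p between 0.0783 and 0.171 in wild type and between 0.0577 and 0.188 in knockout. With the library set as a term the edgeR adjusted p was 0.113 in wild type and 0.194 in knockout.

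The promoters of Bcl2l11 and Bbc3 are shown because, of the members with a window in the RefSeq table, these are the ones that hold the FOXO motif GTAAACA or its reverse complement TGTTTAC. FOXO transcription factors are known activators of both genes. Windows were present for 8 of the 10 members, 15 windows in all, and each covers 250 bases before a RefSeq start (GRCm38.p6). The motif, in capitals, begins 227 bases before 1 of the starts of Bcl2l11 (chr2:128125788-128126037, plus strand). It begins 167 bases before 1 of the starts of Bbc3 (chr7:16310011-16310260, plus strand). Neither of these windows holds annotated exon sequence. The windows of the other starts of both genes hold no match to the motif.
Bcl2l11 promoter: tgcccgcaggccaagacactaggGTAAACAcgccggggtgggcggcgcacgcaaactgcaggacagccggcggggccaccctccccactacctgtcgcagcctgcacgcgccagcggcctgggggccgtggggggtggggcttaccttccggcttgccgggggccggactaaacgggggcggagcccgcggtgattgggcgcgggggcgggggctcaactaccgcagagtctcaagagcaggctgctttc
Bbc3 promoter: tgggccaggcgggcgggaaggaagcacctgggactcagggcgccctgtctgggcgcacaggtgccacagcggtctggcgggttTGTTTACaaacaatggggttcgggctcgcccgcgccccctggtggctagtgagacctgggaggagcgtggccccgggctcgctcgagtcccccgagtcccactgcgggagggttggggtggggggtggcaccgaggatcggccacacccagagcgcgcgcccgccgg
The FOXO motif occurred in 2 of the 15 member windows and in 1040 of 32851 windows (3.17%). GC boxes occurred in 8 of the 15. Searched on both strands, the E-box CACGTG was in 2 member windows (6.02% of all windows). The AP-1 motif TGANTCA (6.75% of all windows), the CRE TGACGTCA (1.55%), the ATF4-CHOP motif TGATGCAA (0.79%) and the STAT motif TTCNNNGAA (7.02%) were in none of the 15. These motifs were chosen after the sequences had been read, and a match is a description of letters, not of binding.

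Bcl2l11 (ENSMUSG00000027381) lies on chromosome 2, 128126038 to 128162547, plus strand, and Bbc3 (ENSMUSG00000002083) on chromosome 7, 16308393 to 16318205, plus strand, both GRCm38. The FOXO genes were themselves measured. Against saline, Foxo3 had a log2 fold change of 1.50 ± 0.19 in wild-type acetaminophen livers (SE, edgeR adjusted p = 0.00946) and 1.33 ± 0.19 in knockout acetaminophen livers (adjusted p = 0.00868). For Foxo1 the values were 0.66 ± 0.16 in wild type (edgeR adjusted p = 0.0484) and 0.88 ± 0.16 in knockout (adjusted p = 0.0171). The wild-type value of Foxo1 lay just under the threshold, and its result without each library is not given here. The part of Foxo1 and Foxo3 in the levels of Bcl2l11 and Bbc3 was not tested. FOXO activity is set largely by phosphorylation and location in the cell, which were not measured.

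Bid fell in both acetaminophen groups. It encodes the BH3-only protein that caspase-8 cleaves to its active truncated form. Its FPKM was 2.51 and 2.43 in knockout acetaminophen livers, 1.83 and 2.07 in wild-type acetaminophen livers and 5.04 and 4.47 in wild-type saline livers. None of the 3 groups overlapped. The log2 fold change against saline was -1.08 ± 0.17 in wild-type acetaminophen livers (SE, edgeR adjusted p = 0.0144) and -0.76 ± 0.17 in knockout acetaminophen livers (adjusted p = 0.0268). The wild-type call was lost without wild-type acetaminophen replicate 1 (edgeR adjusted p = 0.0688) or saline replicate 3 (0.0754), and the knockout call without either knockout liver (0.0776 and 0.112), either saline liver (0.136 and 0.0628) or in the model with a library set term (0.128). Bid (chromosome 6, 120891930 to 120916853, minus strand, ENSMUSG00000004446) shares 628 exon bases with Bcl2l13 on the opposite strand, which had 2.93 to 4.12 FPKM and a log2 fold change of 0.11 ± 0.17 in wild-type acetaminophen livers against saline (edgeR adjusted p = 0.711).

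Bik, a BH3-only gene whose protein sits at the endoplasmic reticulum, had 0.97 and 1.06 FPKM in knockout acetaminophen livers, 0.59 and 0.48 in wild-type acetaminophen livers and 1.63 and 2.07 in wild-type saline livers. The groups did not overlap, and knockout livers lay between the others. It fell in wild-type acetaminophen livers (log2 fold change -1.56 ± 0.34 against saline, edgeR adjusted p = 0.0348), a call lost when any 1 of the 6 libraries was left out (adjusted p between 0.0643 and 0.119) and in the model with a library set term (0.117). In knockout acetaminophen livers the log2 fold change of -0.68 ± 0.33 did not pass the test (edgeR adjusted p = 0.202). The gene lies on chromosome 15, 83526862 to 83544634, plus strand (ENSMUSG00000016758, GRCm38).

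Bmf, whose protein is held by the dynein light chain DYNLL2 in healthy cells, was near the threshold. Its FPKM was 0.86 and 0.92 in knockout acetaminophen livers, 0.56 and 0.71 in wild-type acetaminophen livers and 1.25 and 2.28 in wild-type saline livers. The groups did not overlap, and the saline livers were far apart. The log2 fold change against saline was -1.25 ± 0.32 in wild-type acetaminophen livers (SE, edgeR adjusted p = 0.0536, and 0.00384 to 0.185 over the alternatives) and -0.80 ± 0.32 in knockout acetaminophen livers (adjusted p = 0.131). Bmf lies on chromosome 2, 118528757 to 118549687, minus strand (ENSMUSG00000040093).

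Pmaip1 encodes NOXA, a BH3-only protein with a preference for MCL1. It had 0.32 and 0.63 FPKM in knockout acetaminophen livers, 0.56 and 0.30 in wild-type acetaminophen livers and 0.19 and 0.25 in wild-type saline livers, on 34 to 117 counts per library. The acetaminophen livers all lay above saline but varied about as much within a group as between groups. With no filter on level, edgeR gave a log2 fold change against saline of 1.13 in wild-type acetaminophen livers (adjusted p = 0.393) and 1.21 in knockout acetaminophen livers (adjusted p = 0.343).

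**Figure D3:**
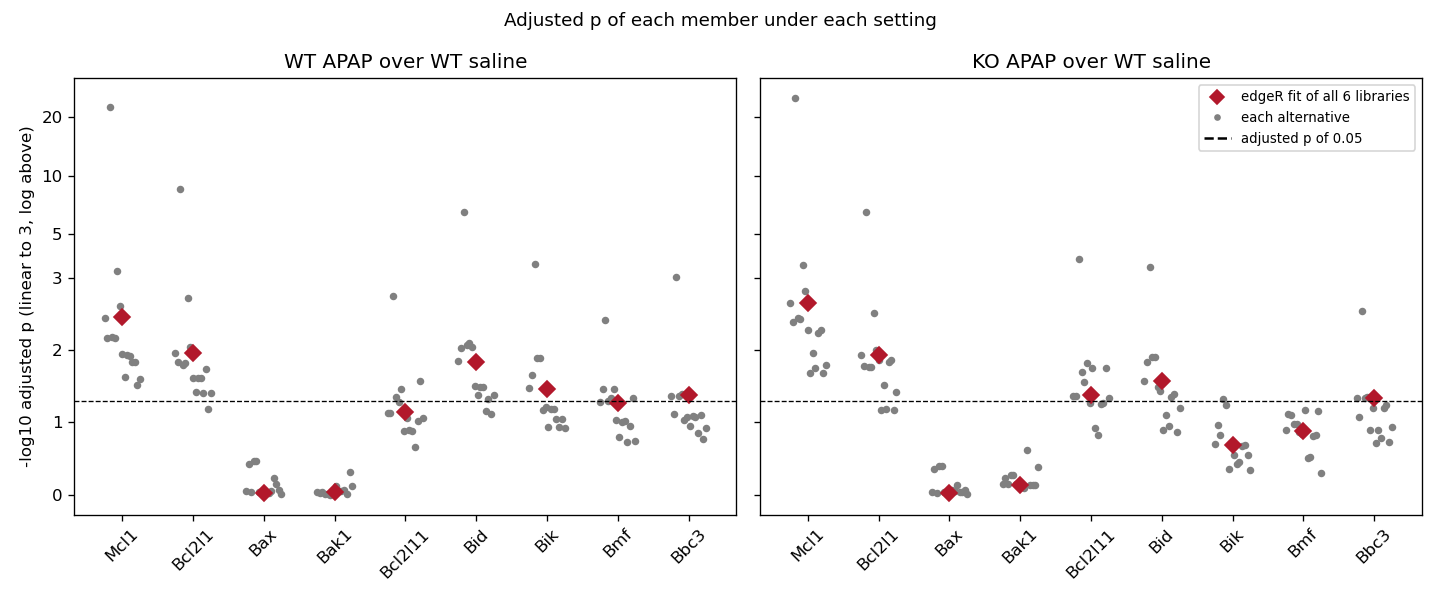
-log10 adjusted p (y axis, linear to 3 and logarithmic above) of the 9 tested members under edgeR's fit of all 6 libraries (diamonds) and under each alternative (grey points); the dashed line is an adjusted p of 0.05. All points of Mcl1 lie above the line, and all points of Bax and Bak1 lie below it. In the wild-type panel Bcl2l1, Bcl2l11, Bid, Bik, Bmf and Bbc3 have points on both sides of it.

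The comparison of knockout with wild-type livers, both after acetaminophen, asks whether loss of Optn changed the family's transcripts at 6 h. No member passed the test in either direction (0 of 9 by edgeR, DESeq2 and limma), where 0.0514% of all genes were higher by edgeR and 0.0514% lower, 6 genes each. An unadjusted p under 0.05 was found for 1 of 9 members, where 1024 of all 11677 genes had one, a similar share. That member was Bik, with a log2 fold change of 0.88 ± 0.34 (95% interval 0.06 to 1.71, edgeR adjusted p = 0.541). Its knockout values of 0.97 and 1.06 FPKM were both above the wild-type acetaminophen values of 0.59 and 0.48. The treated groups lie in different library sets, so a difference between them cannot be told apart from the set.

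For the other members the differences between genotypes are given with their intervals, from the fit of all 6 livers. For Mcl1 the log2 fold change of knockout over wild type was 0.07 ± 0.13, with a 95% interval from -0.25 to 0.38 (edgeR adjusted p = 0.92). Bcl2l1 gave -0.24 ± 0.24 (interval -0.83 to 0.35), Bax 0.00 ± 0.19 (interval -0.48 to 0.48) and Bbc3 -0.09 ± 0.20 (interval -0.59 to 0.40). Bid, with knockout livers above wild-type acetaminophen livers in all 4 values, gave 0.31 ± 0.17 (interval -0.09 to 0.72, edgeR adjusted p = 0.65), and Bmf gave 0.45 ± 0.32 (interval -0.33 to 1.23). For Bcl2l11 and Bak1 the data bound little: the intervals ran from -1.21 to 1.90 and from -2.00 to 1.04. The Bak1 difference of -0.48 was -1.50 without knockout replicate 5 and 0.12 without knockout replicate 4. In the model with a library set term the log2 fold change was 2.44 for Bcl2l11 (edgeR adjusted p = 0.633), which lies outside the interval above, and the sign turned for Bak1 (0.82) and Bmf (-0.38). That term can be estimated only from saline replicate 3 against saline replicate 6, which had 0.62 and 0.14 FPKM of Bcl2l11. These values therefore carry the difference between the saline livers and are not a genotype effect freed of the set.

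Ordered by level per length (FPKM) among the 10 genes, Mcl1 was highest in each group, clear of all others. The order below it differed between saline and acetaminophen. In knockout and wild-type acetaminophen livers Bcl2l1 came next, clear of Bax and Bak1, whose ranges overlapped. In saline livers Bax, Bak1, Bcl2l1 and Bid followed Mcl1 with ranges that overlapped between neighbours. At the low end, Pmaip1 was last in every group, and Bcl2l11 stood next to it in saline livers with an overlapping range.

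Levels were also summed by role. The pro-survival genes Mcl1 and Bcl2l1 summed to 64.0 and 79.5 FPKM in knockout acetaminophen livers, 69.0 and 70.6 in wild-type acetaminophen livers and 26.6 and 28.8 in saline livers. The effectors summed to 7.86 and 13.1 FPKM in knockout acetaminophen livers, 11.6 and 11.8 in wild-type acetaminophen livers and 15.0 and 11.2 in saline livers. The 6 BH3-only genes summed to 9.45 and 10.2 FPKM in knockout acetaminophen livers, 8.69 and 7.60 in wild-type acetaminophen livers and 10.4 and 11.2 in saline livers. Pro-survival sums separated saline from acetaminophen, and effector sums overlapped between groups. BH3-only sums were highest in the saline livers by a small margin, 10.43 in saline replicate 3 against 10.20 in knockout replicate 5. On log2(FPKM + 0.5) the median of all genes was itself -0.15 in both acetaminophen groups against saline. Whether the order of the BH3-only sums holds under another scaling was not tested.

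Mcl1 alone took 66.2% and 63.2% of the summed FPKM of the 10 genes in knockout acetaminophen livers. Its share was 59.1% and 64.9% in wild-type acetaminophen livers and 43.0% and 45.6% in saline livers. Other BCL2 family genes were not in this sum, among them Bnip3 at 52.5 to 101.2 FPKM over the libraries. The ratio of pro-survival to effector FPKM was 8.14 and 6.09 in knockout acetaminophen livers, 5.96 and 5.97 in wild-type acetaminophen livers and 1.77 and 2.56 in saline livers. The ratio of pro-survival to BH3-only FPKM was 6.77 and 7.79 in knockout acetaminophen livers, 7.94 and 9.29 in wild-type acetaminophen livers and 2.55 and 2.58 in saline livers. Both ratios were higher in every acetaminophen liver than in either saline liver. They follow from the levels already given, are dominated by Mcl1, and say nothing of the proteins. Other family genes, among them Bcl2l2, Bcl2a1b and Bok, were left out of both ratios.

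**Figure D4:**
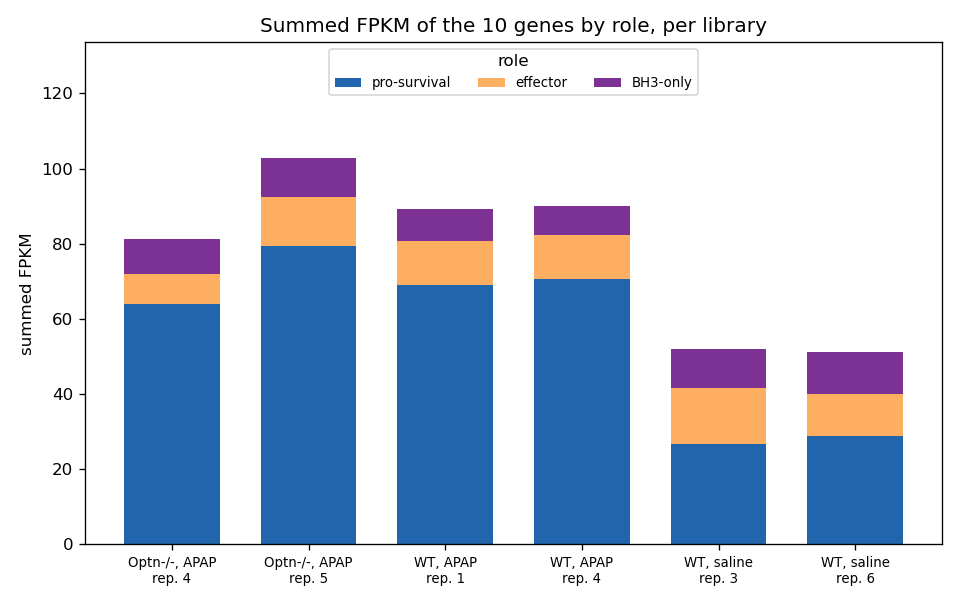
Summed FPKM (y axis) of the pro-survival, effector and BH3-only genes, stacked for each of the 6 livers. The pro-survival share is 64.0 to 79.5 FPKM in the 4 acetaminophen livers and 26.6 to 28.8 in the 2 saline livers, while effector sums run from 7.86 to 15.0 and BH3-only sums from 7.60 to 11.2 over all livers.

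Genes around the family were read from 4 lists, which were also chosen with earlier results of these data known. Of these, 3 are described by their counts beside the shares of all genes given above. The list of caspases and their regulators is described by its median. Of other BCL2 family genes, 8 of 11 were tested. In wild-type acetaminophen livers against saline 3 rose and none fell, with a median log2 fold change of 0.65 against 0.03 for all genes. Those that rose were Bok, an effector-like member (1.14 ± 0.27, edgeR adjusted p = 0.0458), and Bcl2a1a and Bcl2a1b, copies of the pro-survival gene A1 (3.56 ± 0.64 and 2.99 ± 0.71, adjusted p = 0.0213 and 0.0433). Reads of the near-identical A1 copies may have been split between them, so each copy's value is uncertain. In knockout acetaminophen livers Bcl2a1a and Bcl2a1b rose (3.87 ± 0.65 and 3.24 ± 0.71, edgeR adjusted p = 0.0131 and 0.0282). A further copy, Bcl2a1d, did not pass the test in wild type (2.97 ± 0.82, edgeR adjusted p = 0.0644) or in knockout (2.78 ± 0.81, adjusted p = 0.062). Wild-type acetaminophen replicates 1 and 4 lay far apart, at 8.60 and 2.13 FPKM of Bcl2a1b. Another pro-survival gene, Bcl2l2, had a log2 fold change of -0.46 ± 0.17 in each comparison with saline. It did not pass the test (edgeR adjusted p = 0.129 in wild type and 0.116 in knockout). With limma on log2(FPKM + 0.5), 2 genes of the list fell in knockout acetaminophen livers against saline. Bcl2, the founder of the family, stayed below the level tested, at 0.07 to 0.23 FPKM. The wild-type count of 3 was 0 without wild-type acetaminophen replicate 1 or saline replicate 3, 1 without either knockout liver, without saline replicate 6 or in the model with a library set term, and 3 without wild-type acetaminophen replicate 4. The knockout count of 2 was 0 without knockout replicate 5, without saline replicate 3 or in the model with a library set term, and 1 without knockout replicate 4 or saline replicate 6.

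A1 is known as a gene of neutrophils and other blood cells. Markers of neutrophils, infiltrating monocytes, red cells and platelets moved with it, whereas B cell markers were not called. Neutrophil markers (11 genes) summed to 148.9 and 190.2 CPM in knockout acetaminophen livers, 144.2 and 68.7 in wild-type acetaminophen livers and 2.99 and 7.8 in saline livers. Ly6g, Cxcr2, Camp and Stfa2l1 were at 0 in saline replicate 3, and Retnlg, Ltf and Stfa2l1 in saline replicate 6. Of 9 of these markers tested against saline, 8 rose in knockout and 6 in wild-type acetaminophen livers. Markers of infiltrating monocytes (8 genes) summed to 217.0 and 176.5 CPM in knockout acetaminophen livers, 112.7 and 67.5 in wild-type acetaminophen livers and 3.62 and 7.96 in saline livers. Red cell markers (6 genes) summed to 8459 and 8927 CPM in knockout acetaminophen livers, 9382 and 3962 in wild-type acetaminophen livers and 699.9 and 1110 in saline livers, and all 5 tested rose in both comparisons with saline by edgeR. Platelet markers (5 genes) summed to 21.6 and 24 CPM in knockout acetaminophen livers, 16.7 and 10.6 in wild-type acetaminophen livers and 3.7 and 3.08 in saline livers, and 3 of 4 tested rose in both comparisons. B cell marker sums overlapped between wild-type acetaminophen livers (2.93 and 4.29 CPM) and saline livers (2.15 and 3.56 CPM). None of 2 B cell markers tested passed in either comparison with saline. T and NK cell markers summed to 3.63 to 7.61 CPM in acetaminophen livers and 2.08 and 2.28 in saline livers, and 1 of 2 tested rose in both comparisons. Mcl1 and Bcl2l11 are also expressed in blood cells, and the part of such cells in the results on the family was not tested.

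The list of caspases and their regulators downstream of mitochondria had a median log2 fold change of -0.09 over 12 genes tested in wild-type acetaminophen livers against saline. Xiap, which inhibits caspases, fell in wild-type acetaminophen livers (-0.89 ± 0.15, edgeR adjusted p = 0.0167) and in knockout acetaminophen livers (-0.95 ± 0.15, adjusted p = 0.0102). Birc3, which encodes the ubiquitin ligase cIAP2, rose in knockout acetaminophen livers (1.43 ± 0.29, edgeR adjusted p = 0.0225) and did not pass the test in wild-type acetaminophen livers (0.71 ± 0.29, adjusted p = 0.155). These calls depended on single libraries: without saline replicate 3, and in the model with a library set term, none was left in either comparison.

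The third list held transcription factors, and the p53 regulator Mdm2, that are known to act on family genes. Of 15 tested, 11 rose and none fell in wild-type acetaminophen livers against saline, with a median log2 fold change of 1.34. The smallest p-values belonged to Atf3 (7.80 ± 0.19, edgeR adjusted p = 0.000192), the stress factor Ddit3, which encodes CHOP (4.60 ± 0.27, 0.00144), the AP-1 subunit Jun (5.64 ± 0.42, 0.00241) and Mdm2, a p53 target and the ligase that degrades p53 (1.57 ± 0.14, 0.00331). The p53 gene itself, Trp53, had a log2 fold change of 0.05 ± 0.18 (adjusted p = 0.889). In knockout acetaminophen livers 12 rose, with a median of 1.46. The wild-type count of 11 was 6 without wild-type acetaminophen replicate 1 or saline replicate 3, and 7 without wild-type acetaminophen replicate 4, without saline replicate 6 or in the model with a library set term. The knockout count of 12 was 6 without knockout replicate 5 and 8 without saline replicate 3, and 8 in the model with a library set term. Of 11 genes for kinases, ubiquitin enzymes and partners that act on family proteins, none passed the edgeR test in wild-type acetaminophen livers. In knockout acetaminophen livers the Bmf partner Dynll2 fell (-0.50 ± 0.13, adjusted p = 0.0403), a call lost when any 1 of the 6 libraries was left out.

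Between knockout and wild-type livers after acetaminophen, no gene of the 4 lists passed the edgeR test. Of the 46 genes tested, 5 had an unadjusted p under 0.05 (Birc3, Mdm2, Nfkb1, Dynll2 and Vdac1), a share similar to the 1024 of all 11677 genes. limma called none, and DESeq2 called 1.

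**Figure D5:**
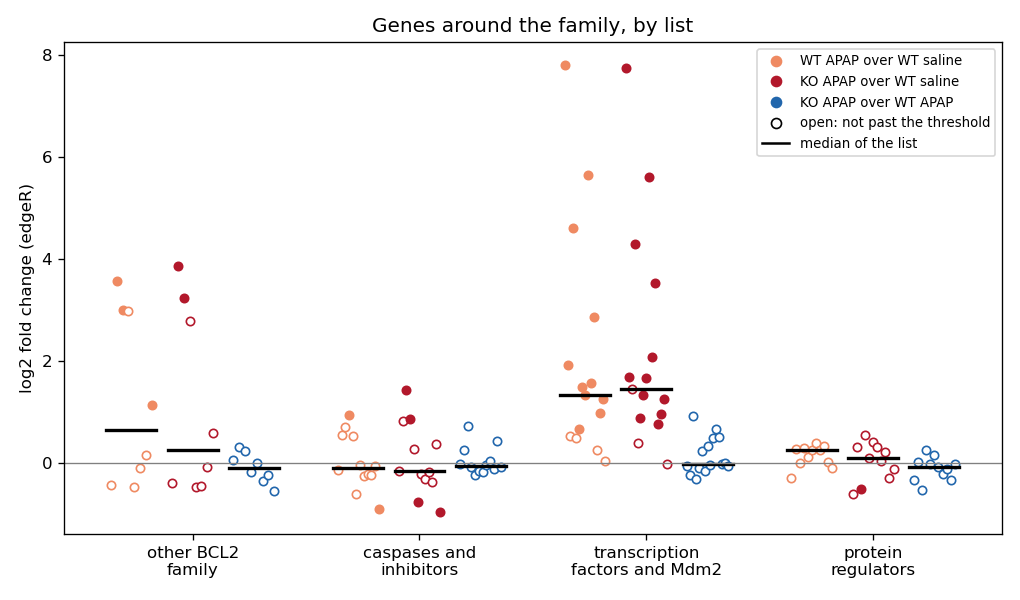
Log2 fold changes from edgeR (y axis) of each tested gene in the 4 lists, for 3 comparisons; filled points had an adjusted p under 0.05 and black lines are medians. The transcription factor list has a median of 1.34 in wild-type and 1.46 in knockout acetaminophen livers against saline, and every point of knockout over wild type is open.

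The genes most like each called member over the 6 livers were found by the root mean square difference of log2(FPKM + 0.5) profiles, each centred on its own mean, among 9901 tested genes. Nearest to Mcl1 were Cdk17 (0.045), Clpx (0.082) and Dusp16 (0.088). Nearest to Bcl2l1 were Hmgb2 (0.101), Agt (0.134) and Slc38a2 (0.144), and nearest to Bcl2l11 were Pde4b (0.203), Batf (0.211) and Spred1 (0.212). Bid was nearest to Dtx3l (0.042), Rnpep (0.058) and Klhl42 (0.065). Bik was nearest to Rara (0.061), S1pr1 (0.093) and Cables2 (0.128), and Bbc3 to Clp1 (0.024), Agxt (0.053) and Il13ra1 (0.062). Within the family the distance was 0.224 between Mcl1 and Bcl2l1, 0.190 between Bik and Bmf and 0.193 between Bid and Bik, whereas Bak1 was 0.606 from its fellow effector Bax. A small distance is easier to reach for genes that vary little on this scale, and likeness over 6 libraries is a description.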

How the data were processed

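Liver messenger RNA was selected by poly(A) and sequenced as paired ends, per the labels' protocols. The deposited table gives raw whole-number counts of each gene in each library, per the file headers, and the authors' FPKM for the same genes. A count of 0 is listed at an FPKM of 0.0001. Bowtie 0.12.2 and the build mm8 are named in the submitters' processing notes. The table's coordinates equal those of GENCODE M21 (GRCm38) for 94.3% of shared genes, and GRCm38 is used here. The sources used here do not name the counter or its use of strand. Each library is 1 mouse, per the series' design text, and p-values measure only the spread between these 6 mice.

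Counts were tested with edgeR 4.0.16 (R 4.3.3; quasi-likelihood, TMM scaling, all 6 libraries, 3 group means, 3 residual degrees of freedom) over 11677 genes (mean FPKM 0.5 or higher), at a Benjamini-Hochberg adjusted p under 0.05. An interval is at 95%. The common biological coefficient of variation was 0.277. Alternatives were DESeq2 1.42.0, limma 3.58.1 on log2(FPKM + 0.5) and log2(FPKM + 0.1), other scalings and filters, only the 4 libraries compared, a library set term and each library left out. The members, the 4 gene lists and the 15 marker lists were chosen with earlier results of these data known. Named genes were all members, up to 4 called genes per list with the smallest p in wild type, and the 3 nearest profiles of each called member. Other genes of the lists were named after their values were seen. Total counts of 59.1 to 77.3 M put the floor of 3 counts at 0.0388 to 0.0507 CPM, which covers counting error only. Some genes of the lists are not reported here.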

Additional observations from a re-analysis of the deposited data

How the results depend on the processing

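Among the called members, Mcl1 passed in all 15 alternatives of both comparisons with saline. No called value changed direction under any alternative. The count of wild-type rises stayed between 2 and 4, against 3. The count of wild-type falls, 2 in the edgeR fit of all libraries, was 0 at a mean FPKM of at least 5, 1 with only the 4 libraries compared and 1 in the model with a library set term, 0 to 1 with a library left out, and 3 with DESeq2, with limma on log2(FPKM + 0.1) and with total counts. For knockout against saline the 4 rises became 2 at a mean FPKM of at least 5, 2 with only the 4 libraries compared and 2 in the model with a library set term, and 1 to 3 with a library left out. The 1 fall became 2 with limma on log2(FPKM + 0.5), 0 at a mean FPKM of at least 5 and 0 in the model with a library set term, and 0 to 1 with a library left out. At the stricter minimum only 3 members were tested, Mcl1, Bcl2l1 and Bax, which shows the cause there. For the other changes the cause was not tested. Where a library was left out, the lone sample of its group was assumed to vary like the others.

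Over all genes, the 976 rises and 691 falls in wild type were 1683 and 1419 with DESeq2 and 724 and 1497 with total counts. Leaving out saline replicate 3 gave 360 and 134. The 1426 rises and 940 falls in knockout against saline were 1986 and 1633 with DESeq2, 1137 and 1768 with total counts, and 534 and 216 without knockout replicate 5. For knockout over wild type, 6 and 6 calls were 163 and 120 with DESeq2 and 21 and 6 with limma on log2(FPKM + 0.5), and no setting called a member. With no filter beyond 1 count, Pmaip1 entered the tests and was not called. No paired analysis was possible because only the number 4 occurs in more than 1 group.

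With 2 livers per group, each call of a member other than Mcl1 was lost without at least 1 of the libraries. This does not hold for all genes of the lists or of the table. Depth bears on Pmaip1 most, with 34 to 117 counts per library. A value for a bulk liver averages over hepatocytes, blood cells and traces of other tissues.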
